A study of Rattus norvegicus with 10 samples.

Results

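The synaptogyrins and synaptophysins are a small family of vesicle proteins, and 6 of its genes (Syngr1, Syngr2, Syngr3, Syp, Sypl1 and Synpr) were followed here out of 23918 genes with values. Syngr2 was selected on its rise in the comparison described below, and the other 5 were added as its relatives, so the change of Syngr2 is given as a description without a test. Of the 6 genes, 4 passed the filter on low values (Syp, Sypl1, Syngr2 and Syngr1), while Syngr3 and Synpr did not. The data are RNA-seq libraries of β-cells, the insulin-secreting cells of the pancreatic islet, from adult Sprague-Dawley rats. The cells were sorted by FACS on their autofluorescence, plated on matrix laid down by rat bladder cancer cells, and transfected with the reagent Lipofectamine RNAiMAX. One group received a pool of 4 siRNAs against rat Scrt1, a zinc finger transcriptional repressor (siScrt1, replicates A to E, n = 5), and the other a negative control siRNA (siCtrl, replicates 1 to 5, n = 5). RNA was taken 48 h later. The knockdown was therefore a brief one in plated, sorted cells, with no untransfected group among the samples analysed here. The labels do not say whether the 5 libraries of a group came from separate animals, so the p-values measure the spread between these libraries, which may be technical.

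Synaptophysin and the synaptogyrins share a fold of 4 membrane-spanning segments, known as the MARVEL domain, with both ends of the protein in the cytosol. Synaptophysin (Syp) is the best known marker of small synaptic-like vesicles in neurons and neuroendocrine cells, islet cells included, and it binds the vesicle SNARE synaptobrevin (Vamp2). Synaptogyrin 1 and synaptogyrin 3 are the neuronal synaptogyrins, synaptogyrin 2 (also called cellugyrin) is the form of non-neuronal tissues, synaptophysin-like 1 (Sypl1, or pantophysin) is likewise broadly expressed, and synaptoporin (Synpr) is a synaptophysin relative of particular brain regions.

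The RefSeq promoter table (assembly GRCr8) held a window of 300 bases for 3 of the 6 genes (Syngr2, Syp and Synpr), out of 33469 windows. The stretch upstream of the earliest annotated start is shown for Syngr2, the gene the set was built around, and for Syp, the most abundant relative. The Syngr2 stretch is chr10:103528379-103528598 on the plus strand and the Syp stretch is chrX:17536450-17536699 on the minus strand, both written 5′ to 3′ in the direction of the gene, with capitals for the GC box GGGCGG on either strand.
Syngr2: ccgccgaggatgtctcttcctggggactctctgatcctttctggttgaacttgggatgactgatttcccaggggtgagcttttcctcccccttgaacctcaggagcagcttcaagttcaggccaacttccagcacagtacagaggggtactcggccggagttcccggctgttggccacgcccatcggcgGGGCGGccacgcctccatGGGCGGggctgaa
Syp: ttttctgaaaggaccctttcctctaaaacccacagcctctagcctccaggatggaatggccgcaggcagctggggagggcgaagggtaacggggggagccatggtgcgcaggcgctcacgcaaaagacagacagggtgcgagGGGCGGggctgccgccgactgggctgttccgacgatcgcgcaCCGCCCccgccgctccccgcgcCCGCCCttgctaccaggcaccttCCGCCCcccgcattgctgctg
Both stretches are rich in G and C, at 61.4% for Syngr2 and 68.0% for Syp. The window of Syngr2 held 3 GC boxes, of which 2 lie in the stretch shown, and that of Syp held 4, whereas the Synpr window had none. A GC box was present in 33.1% of all windows. The sequence CAGGTG, read on both strands and known as a core of the E-box that Scratch and Snail proteins bind, was matched 0 times in the 3 windows and was present in 18.8% of all windows. The wider E-box CANNTG, which includes CAGGTG, was present in 72.1% of all windows. It was matched 0 times in Syngr2, 1 time in Syp and 5 times in Synpr.

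The libraries held 11901342 to 17444034 reads each, recovered from the deposited scaled counts. CPM below is the read count scaled to the library total. Scrt1 fell in siScrt1, from 195, 152, 231, 269 and 156 reads in siCtrl replicates 1 to 5 to 66, 74, 59, 34 and 24 reads in siScrt1 replicates A to E. The mean went from 14.1 ± 2.61 to 3.58 ± 1.63 CPM (SD, n = 5 each). On the log2 scale this was -2.06 ± 0.308 (SE, adjusted p = 0.00618 in limma). Markers of β-cells were abundant, at 103518 to 166716 summed CPM for the 9 of 10 listed genes found in the table in siCtrl and 105359 to 151619 in siScrt1, led by Ins1. Genes of other cell types were present at lower summed levels. The α-cell list (5 genes) summed to between 789.9 and 1171 CPM with siCtrl and between 696 and 1057 with siScrt1, and the list of 3 δ- and PP-cell genes from 16.5 to 73.9 and from 20.2 to 82.2 CPM. The duct list (5 genes, almost entirely Krt7) ranged from 188 to 267 and from 201 to 267 CPM, the mesenchymal list (6 genes) from 3.71 to 16.8 and from 4.72 to 30.6 CPM, and the neural list (6 genes, Sox10 at 0) from 2.64 to 6.17 and from 2.71 to 4.35 CPM. Immune (6 genes, Cd3e at 0), endothelial (4 of 5 genes found) and acinar genes (7 genes) summed to less than 3 CPM in every library. None of these 9 sums differed between the groups in an exact two-sided permutation test (p from 0.389 to 0.944, where 0.00794 is the smallest p that 5 against 5 libraries can give). The β-cell sum was mostly Ins1 and Ins2 (means of 63431 and 49486 CPM in siCtrl) and says little of its other genes. Of those, Pdx1, Mafa and Nkx6-1 had log2 fold changes of 0.35, 0.37 and 0.17 (unadjusted limma p of 0.0051, 0.0453 and 0.0278). Those of Ucn3, Slc30a8, Slc2a2 and Iapp were 0.03, -0.05, -0.08 and -0.15, and none of these genes passed limma after adjustment. The mesenchymal sum stood apart from the rest of its group in siCtrl replicate 4 (16.8 CPM) and siScrt1 replicate D (30.6 CPM). In bulk RNA a smaller number of cells of one type and less RNA in each cell cannot be told apart.

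Syngr2, the synaptogyrin of non-neuronal tissues, was higher in all siScrt1 libraries than in any siCtrl library, at 2.16 times the control level. Its single annotated transcript (ENSRNOT00000074225, 946 bases, gene ENSRNOG00000050547 on chromosome 10) carried 199, 171, 280, 204 and 183 reads in siCtrl replicates 1 to 5. The siScrt1 replicates A to E had 322, 664, 437, 440 and 442 reads. Every one of these counts was a whole number, with no fraction of a read assigned. A whole count does not show that every read fitted Syngr2 alone. In CPM the siCtrl values were 14.9, 13.2, 17.0, 13.8 and 14.0, and the siScrt1 values were 27.1, 38.1, 31.7, 29.0 and 28.8. All 5 siScrt1 libraries lay above all 5 siCtrl libraries, and replicate B stood highest. The mean went from 14.6 ± 1.50 to 30.9 ± 4.32 CPM (SD, n = 5 each), a ratio of means of 2.12. The fitted log2 fold change was 1.11 (SE 0.121, 95% interval 0.85 to 1.38), equal to 2.16-fold with an interval of 1.81 to 2.60. Over the 19 alternative settings and omissions of a library the log2 value ran from 1.03 to 1.20. Because Syngr2 was selected on this rise, the fold change may be overstated. Neither the interval nor the range takes the selection into account, and neither is a test.

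Scrt1 and Syngr2 values can be set side by side within the siScrt1 group. Scrt1 stood at 5.55, 4.24, 4.28, 2.24 and 1.57 CPM in replicates A to E, beside 27.1, 38.1, 31.7, 29.0 and 28.8 CPM of Syngr2. Replicate A had the most Scrt1 left and the lowest Syngr2 value, and replicate E had the least Scrt1 left and the next lowest Syngr2 value. Without siCtrl replicate 4 the log2 fold change of Syngr2 was 1.09, and without siScrt1 replicate D it was 1.16. The deposited table numbers the libraries 1 to 5 within each group, and by those numbers Syngr2 was higher in 5 of 5 pairs, by 0.86 to 1.67 on the log2 scale. Since all siScrt1 values lay above all siCtrl values, any pairing gives 5 of 5, and this count adds no support.

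**Figure D1:**
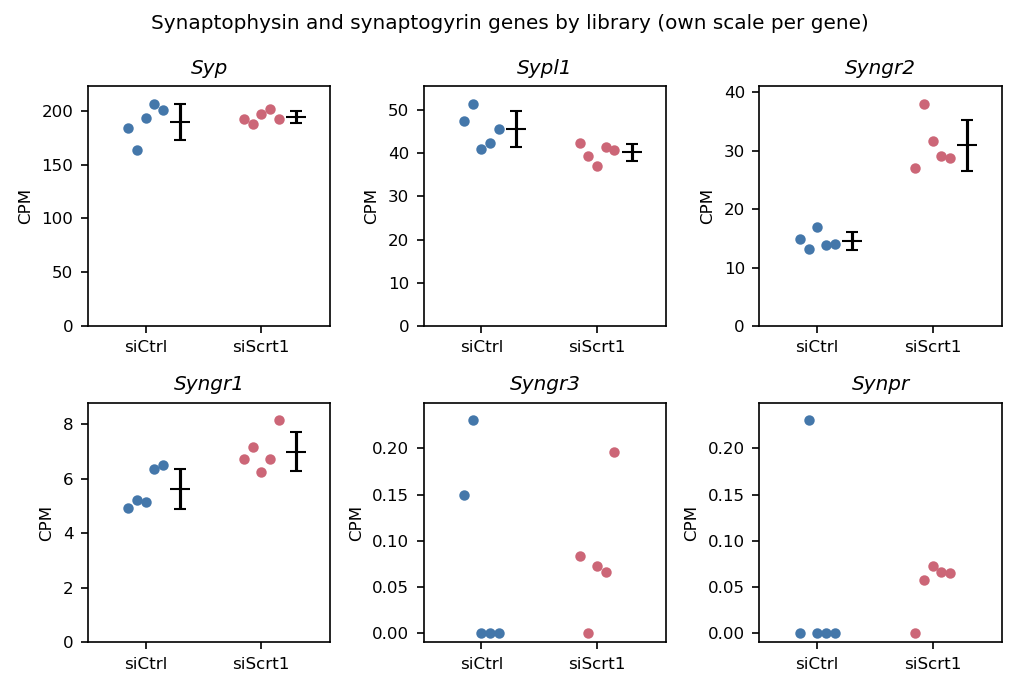
Level of each of the 6 genes in CPM (y axis, a separate scale for each gene) in the 5 siCtrl and 5 siScrt1 libraries, with 1 point for each library in replicate order and, for the 4 genes that passed the filter, the mean and SD beside them. The Syngr2 points of siScrt1 (27.1 to 38.1 CPM) lie above those of siCtrl (13.2 to 17.0 CPM), the points of Syp, Sypl1 and Syngr1 overlap, and Syngr3 and Synpr have at most 3 reads in any library.

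The next question was whether Syngr2 rose alone. Among the 3 relatives with enough reads, 0 passed the test of limma over all genes in either direction, with group as the only term and under all 19 alternatives (limma-voom among them). At an unadjusted p under 0.05 in limma there was 1, Syngr1, where 1435 of all genes tested (11.1%) reached that level. For comparison, 48 of the 12941 genes tested passed with a higher level in siScrt1 (0.371%) and 88 with a lower one (0.68%), and 0 of 3 relatives is not set apart from these shares. The median log2 fold change of all genes tested was 0.0035. All siScrt1 values exceeded all siCtrl values in CPM for 121 genes (0.935%), and among the family only for Syngr2. On the scaled counts that entered the fit this held for 191 genes (1.48%), Syngr1 as well as Syngr2 among them.

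Syngr1, a neuronal synaptogyrin, was the least abundant of the 4 tested members, and its siScrt1 mean was the higher one without passing the test. It had 66, 68, 85, 94 and 85 reads in siCtrl and 80, 125, 86, 102 and 125 reads in siScrt1. In CPM these were 4.93, 5.24, 5.17, 6.35 and 6.49 in siCtrl and 6.72, 7.17, 6.24, 6.73 and 8.15 in siScrt1. The groups overlapped, since siScrt1 replicate C lay below siCtrl replicates 4 and 5, whereas on the scaled counts that entered the fit all siScrt1 values were higher, as for 191 of the 12941 genes tested (1.48%). The mean was 5.64 ± 0.730 CPM under siCtrl and 7.00 ± 0.722 CPM under siScrt1 (SD, 5 libraries each). The log2 fold change was 0.35 (SE 0.122, 95% interval 0.085 to 0.61), and its limma p of 0.0137 did not survive adjustment over all genes (adjusted p = 0.279). Over the alternatives the log2 value stayed between 0.29 and 0.40 and the adjusted p between 0.149 and 0.488. By table number Syngr1 was higher in siScrt1 in 5 of 5 pairs, by 0.066 to 0.59 on the log2 scale. Any pairing gives 5 of 5 here, because all scaled counts of siScrt1 were higher. Nearly all of its level came from the transcript ENSRNOT00000023066 (879 bases), at 7.09 ± 0.960 scaled TPM in siCtrl and 8.90 ± 0.972 in siScrt1, where scaled TPM is the abundance corrected for transcript length. The limma estimate for that transcript was 0.33 (SE 0.132, adjusted p = 0.473).

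Syp, the synaptophysin of small vesicles, was the most abundant member and differed little between the groups. It had 2464, 2117, 3176, 3056 and 2627 reads in siCtrl and 2286, 3270, 2718, 3058 and 2945 reads in siScrt1. The CPM values were 184, 163, 193, 207 and 201 in siCtrl and 192, 187, 197, 202 and 192 in siScrt1. The siCtrl values spread around those of siScrt1 on both sides, with replicate 2 lowest. Means were 189.5 ± 17.0 CPM for siCtrl and 194 ± 5.50 CPM for siScrt1 (SD, 5 libraries each). The fitted log2 difference was 0.07 ± 0.0775 (SE, adjusted p = 0.776 in limma), and its 95% interval of -0.094 to 0.24 left out a change as large as that of Syngr2. Without siCtrl replicate 2 the value was -0.0017.

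Sypl1, the broadly expressed pantophysin, pointed the other way from Syngr2 without passing the test. It had 637, 668, 674, 627 and 597 reads in siCtrl and 504, 688, 511, 627 and 625 reads in siScrt1. In CPM these were 47.6, 51.5, 41.0, 42.4 and 45.6 in siCtrl and 42.3, 39.4, 37.1, 41.4 and 40.8 in siScrt1. The siScrt1 replicates B, C and E lay below all siCtrl values, while A and D lay inside the siCtrl range. Means were 45.6 ± 4.19 CPM for siCtrl and 40.2 ± 2.04 CPM for siScrt1 (SD, 5 libraries each). The fitted log2 difference was -0.14 ± 0.0703 (SE, 95% interval -0.30 to 0.0078, adjusted p = 0.478 in limma). By table number Sypl1 was lower in siScrt1 in 5 of 5 pairs, by 0.052 to 0.24 on the log2 scale.

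**Figure D2:**
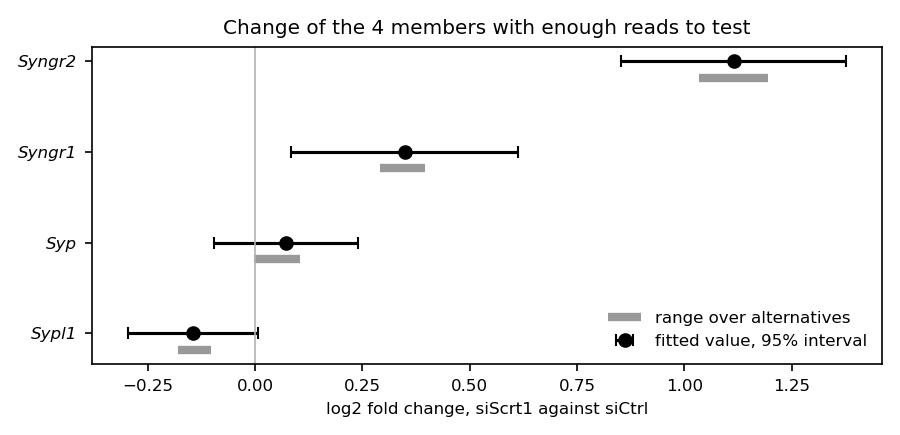
Log2 fold change of siScrt1 against siCtrl (x axis) for the 4 members with enough reads, with black points for the fitted value, black bars for its 95% interval and grey bars for the range over 19 alternative settings and omissions of a library. Syngr2 lies at 1.11, Syngr1 at 0.35, Syp at 0.07 and Sypl1 at -0.14. The grey bars show how far the fitted value moves with the settings, not its sampling error. Syngr2 was selected on its rise, so its distance from the others is no test.

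Set against each relative within the same library, the log2 level of Syngr2 moved by 0.77 more than that of Syngr1 (SE 0.164), by 1.04 more than that of Syp (SE 0.121) and by 1.26 more than that of Sypl1 (SE 0.156). In each of these 3 differences the 5 siScrt1 libraries lay above the 5 siCtrl libraries. These values contain the Syngr2 change that selected the set and carry no test.

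Syngr3 and Synpr were near the limit of detection. Syngr3, a neuronal synaptogyrin, had 2, 3, 0, 0 and 0 reads in siCtrl and 1, 0, 1, 1 and 3 in siScrt1. Pooled over the libraries of a group this was 5 of 70697994 reads (0.0707 CPM, exact Clopper-Pearson 95% interval 0.0230 to 0.165) and 6 of 73609976 reads (0.0815 CPM, interval 0.0299 to 0.177). Synpr, the synaptoporin gene, had 3 reads in siCtrl, all from replicate 2, and 1 read in each of siScrt1 replicates B to E. Its pooled levels were 0.0424 CPM (interval 0.00875 to 0.124) and 0.0543 CPM (interval 0.0148 to 0.139). No difference was detectable at this depth for either gene, and these intervals cover counting error only. A level of 3 reads over a group corresponds to 0.0424 CPM for siCtrl and 0.0408 CPM for siScrt1. The 2 further relatives were also scarce. Syngr4, the remaining synaptogyrin, had 47 reads in siCtrl (0.665 CPM, interval 0.488 to 0.884) and 37 in siScrt1 (0.503 CPM, interval 0.354 to 0.693), and Sypl2, the mitsugumin of skeletal muscle, had 0 and 2 reads.

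Levels of different genes were compared per transcript length, on scaled TPM. The mean over all 10 libraries was 142 scaled TPM for Syp, 39.5 for Sypl1, 27.3 for Syngr2, 8.50 for Syngr1, 0.0693 for Syngr3 and 0.0487 for Synpr. Among the 12941 genes tested, 96.8% had a lower mean scaled TPM than Syp, 85.4% than Sypl1, 78.3% than Syngr2 and 45.9% than Syngr1. The β-cells thus held synaptophysin RNA among the upper levels and Syngr1 RNA near the middle. Neighbours in this order were compared within each library on log2(scaled TPM + 1), with an exact two-sided sign-flip permutation test adjusted over the 5 neighbour pairs. Syp exceeded Sypl1 by 1.82 and Syngr1 exceeded Syngr3 by 3.14, each in 10 of 10 libraries (exact p = 0.00195, the smallest that 10 libraries can give, adjusted p = 0.00326). The pairs that include Syngr2 are given without a p, because its rise selected the set. Syngr2 exceeded Syngr1 in 10 of 10 libraries. Sypl1 exceeded Syngr2 in 5 of 5 siCtrl libraries and in 3 of 5 siScrt1 libraries. In siScrt1 replicates B and C the order was turned, with 46.4 and 39.0 scaled TPM of Syngr2 against 38.2 and 36.1 of Sypl1. Syngr3 and Synpr did not differ beyond their spread (difference 0.03, exact p = 0.422).

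**Figure D3:**
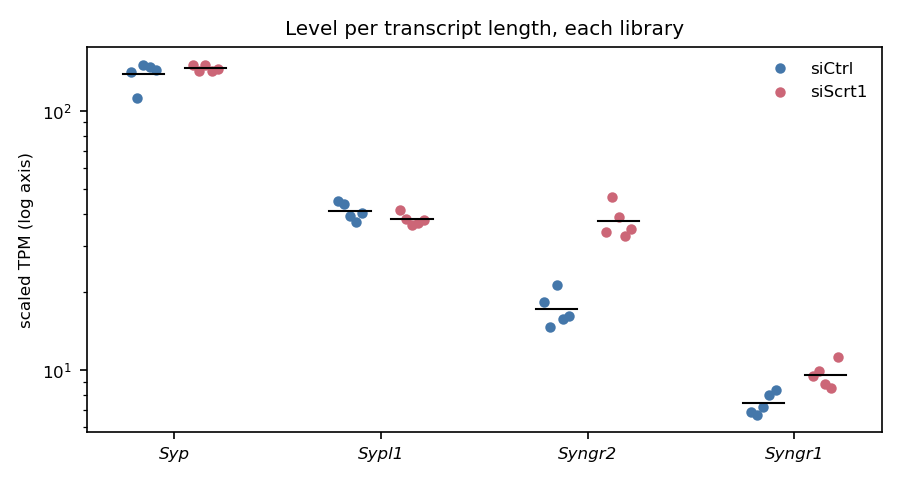
Scaled TPM (y axis, log scale), the abundance corrected for transcript length, of the 4 members that passed the filter, with 1 point for each library and a line at each group mean. Syp lies highest in every library, and the siScrt1 points of Syngr2 (mean 37.4) reach the level of Sypl1, while the siCtrl points (mean 17.2) lie below it.

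As a share of the family's summed scaled TPM, Syngr2 made up 8.41 ± 0.881% in siCtrl (range 7.60 to 9.79%) and 16.2 ± 2.08% in siScrt1 (range 14.5 to 19.6%). The Syp share was 67.7 ± 2.87% and 63.1 ± 1.80%, the Sypl1 share 20.2 ± 2.80% and 16.5 ± 0.829%, and the Syngr1 share 3.64 ± 0.331% and 4.15 ± 0.454% (SD, n = 5 each). The sum itself was 204 ± 15.7 scaled TPM in siCtrl and 231 ± 6.70 in siScrt1. Syp thus remained the main transcript of the family in both groups. Since Syngr2 enters every one of these shares, a smaller share of Syp or Sypl1 is no measure of a fall in its own level.

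The Sypl1 reads were assigned to 2 transcripts, and the division between them was not alike in all libraries. The longer one (ENSRNOT00000087513, 1175 bases) took every Sypl1 read in siCtrl, at 637, 668, 674, 627 and 597 reads, to within 0.002 reads. In siScrt1 replicates A to E it took 475, 605, 455, 567 and 625 reads. The shorter one (ENSRNOT00000067849, 941 bases) received 28.5, 83.2, 56.4, 59.8 and 0.02 reads in the same libraries, or 5.66, 12.1, 11.0, 9.53 and nearly 0% of the gene's reads. It was thus assigned reads in 4 of 5 siScrt1 libraries and in none of 5 siCtrl libraries, and replicate E looked like siCtrl. In CPM the longer transcript was lower in every siScrt1 library than in every siCtrl library, a pattern of 277 of the 17485 transcripts tested (1.58%), while on the scaled counts that entered the fit the groups overlapped. It had a log2 difference of -0.26 (SE 0.0815), and its limma p adjusted over all transcripts tested was 0.310. In that fit 73 transcripts (0.418%) passed the test in either direction. The shorter transcript had too few libraries with reads to enter it. A search chosen after these values were seen found 2 transcripts among 31715 (0.00631%), this one and one of Csrnp1, with under 1 read in every siCtrl library and at least 20 in 4 or more siScrt1 libraries. The Sypl1 transcript was thus bound to be found, and the 31715 include transcripts too low to reach 20 reads. The opposite pattern was found for 1 transcript, of Susd2. Since kallisto divides reads that fit both transcripts between them, the division is an estimate, and its error was not measured here.

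**Figure D4:**
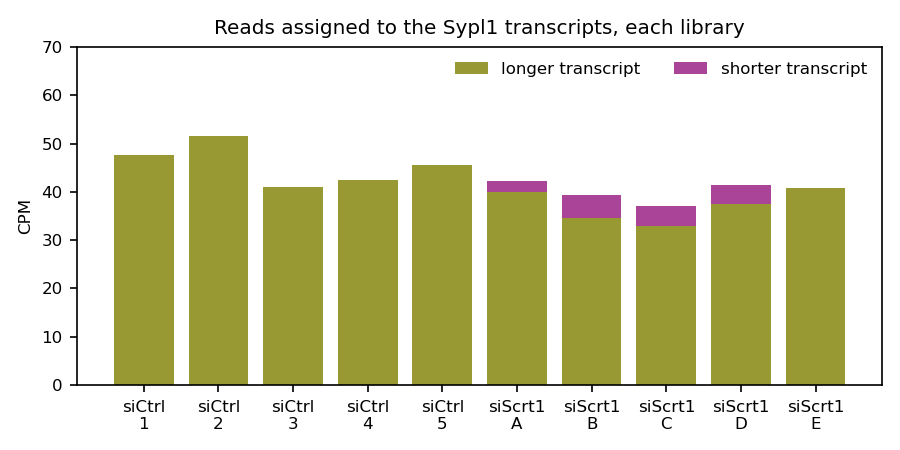
CPM (y axis) assigned to the longer and the shorter Sypl1 transcript in each library, as stacked bars that add up to the level of the gene. The shorter transcript appears in siScrt1 replicates A to D, with 5.66 to 12.1% of the reads, and not in siScrt1 replicate E or in any siCtrl library.

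The genes whose levels over the 10 libraries were most like that of Syngr2, by Pearson's r of the log2 scaled counts, were Msln (0.971), Gpx3 (0.970), AABR07039334.1 (0.958), Mov10 (0.955) and Gna11 (0.941). These r values are descriptions, because all 10 libraries share the contrast that selected Syngr2. After the group means were removed, r was 0.822 for Msln, 0.850 for Gpx3, 0.548 for AABR07039334.1, 0.437 for Mov10 and 0.732 for Gna11. These values are descriptions too, because the genes were chosen for a high r over the same libraries. Msln encodes the surface protein mesothelin, Gpx3 a secreted glutathione peroxidase, Mov10 an RNA helicase and Gna11 a G protein α subunit. In the group comparison Mov10 had a log2 fold change of 1.23, Msln of 0.90, AABR07039334.1 of 0.79, Gpx3 of 0.70 and Gna11 of 0.27.

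The nearest gene with values on either side of each member was taken from the GRCr8 gene order, and genes without values were passed over. Of these neighbours 9 could be tested and 0 passed the test of limma, with 0 also at an unadjusted p under 0.05. Beside Syngr2, Tk1 (thymidine kinase) had 1.10 CPM with siCtrl and 1.55 CPM with siScrt1 (log2 fold change 0.58, limma adjusted p = 0.615), and Tmc8 was too low to test, at 0.0153 and 0.0955 CPM. Rpl3 and Tab1 beside Syngr1 had log2 fold changes of -0.04 and -0.00065. Prickle3 beside Syp had 0.34 (adjusted p = 0.733 in limma), and Cacna1f was too low to test. Nampt and Cdhr3 beside Sypl1 had 0.02 and -0.26, and Zfp598 and Gfer beside Syngr3 had 0.17 and 0.04. Beside Synpr, Cadps, a priming factor of secretory vesicles, was well expressed at 203 and 212 CPM (log2 fold change 0.10, limma adjusted p = 0.606), and Sntn had no reads.

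Other genes of the same protein fold and of the vesicle were read from the same fit, as lists that were drawn up with earlier results known. Of 18 genes for further MARVEL-domain proteins, 11 were tested and 0 rose or fell, with a median log2 fold change of -0.01 beside 0.0035 for all genes and a range of -0.35 to 0.52. At an unadjusted limma p under 0.05 there were 4 of the 11 (11.1% of all genes). The 3 with the highest mean scaled TPM were Cmtm6 (log2 fold change -0.13), a stabiliser of PD-L1 at the cell surface, Plp2 (-0.05) and Cmtm7 (-0.10). The values farthest from 0 were those of Pllp (0.52, limma adjusted p = 0.246), a myelin-type membrane protein, and Marveld1 (0.49, limma adjusted p = 0.0897). Both were chosen for naming after their values were seen.

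Of 34 genes for proteins of the vesicle membrane and its cargo uptake, 32 were in the table and 27 were tested. None rose and 1 fell in limma (0.68% of all genes fell), and 2 of the 27 had an unadjusted p under 0.05 (11.1% of all genes). The median log2 fold change was 0.04. The gene that fell was Vamp7, a SNARE of the late endosome and of regulated exocytosis, from 31.1 ± 2.45 to 22.3 ± 1.45 CPM (SD, n = 5 each, log2 fold change -0.45, SE 0.0766, limma adjusted p = 0.0134). The call held in 18 of 19 alternatives and was lost without siScrt1 replicate D, the library with the highest mesenchymal sum (adjusted p = 0.0523 in limma). Leaving out that library also gave the fewest changed genes of any omission (62), and a link to the mesenchymal sum was not tested. Rab3d, a small GTPase of secretory granules, went from 169.7 ± 8.48 to 119 ± 17.5 CPM and stood just outside the threshold (log2 fold change -0.49, SE 0.107, limma adjusted p = 0.0513). With the table number as a block its limma adjusted p was 0.00844. Rab3d passed in 4 of 19 alternatives, with a limma adjusted p of up to 0.146. Vamp2, the synaptobrevin that binds synaptophysin, had 266 ± 8.17 CPM with siCtrl and 291 ± 45.9 CPM with siScrt1 (log2 fold change 0.15, limma adjusted p = 0.641). The 3 genes of the list with the highest mean scaled TPM, Vamp8, Atp6v0c and Atp6v0d1, had log2 fold changes of -0.08, 0.06 and -0.08. The last 2 encode parts of the proton pump that acidifies vesicles. In CPM, Vamp8 stood well below Vamp2, at 43.1 ± 4.50 with siCtrl and 39.7 ± 1.22 with siScrt1. Rab3d and Vamp2 were named after their values were seen.

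The list for retrieval of vesicle membrane by clathrin and its adaptors had 20 genes, of which 19 were tested, 0 rose and 1 fell in limma (0.68% of all genes fell). At an unadjusted p under 0.05 there were 4 of the 19 (11.1% of all genes), and the median log2 fold change was -0.05. The gene that fell was Snap91 (AP180), an adaptor that assembles clathrin and sorts synaptobrevin, from 76.9 ± 5.89 to 62.1 ± 3.93 CPM (SD, n = 5 each, log2 fold change -0.27, SE 0.0565, limma adjusted p = 0.0396). This call held in 7 of 19 alternatives. It was lost in 9 of the 10 fits that left out a library (all but the one without siCtrl replicate 1), with an adjusted p of up to 0.114. Ston2, a stonin that retrieves synaptotagmin, had 6.91 ± 1.45 and 10.7 ± 2.19 CPM (log2 fold change 0.67, SE 0.172, limma adjusted p = 0.110), and passed with the table number as a block (adjusted p = 0.0277). That block was the only 1 of 19 alternatives in which Ston2 passed, and its limma adjusted p reached 0.256. It was named after its value was seen. The 3 genes with the highest mean scaled TPM were the clathrin chain Cltc (-0.18), the AP2 subunit Ap2m1 (-0.12) and Cltb (0.15), on the log2 scale.

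Cellugyrin is known from small transport vesicles that share their sorting with the glucose transporter Glut4, and 15 genes of that route were examined. Of these 14 were tested, 0 rose or fell, and 2 had an unadjusted limma p under 0.05 (11.1% of all genes). The median log2 fold change was 0.02, with a range of -0.30 to 0.12. The 3 genes with the highest mean scaled TPM, the small GTPases Rab14, Rab10 and Rab11a, had log2 fold changes of -0.06, 0.02 and -0.06. The gene for Glut4 itself (Slc2a4) was too low to test.

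**Figure D5:**
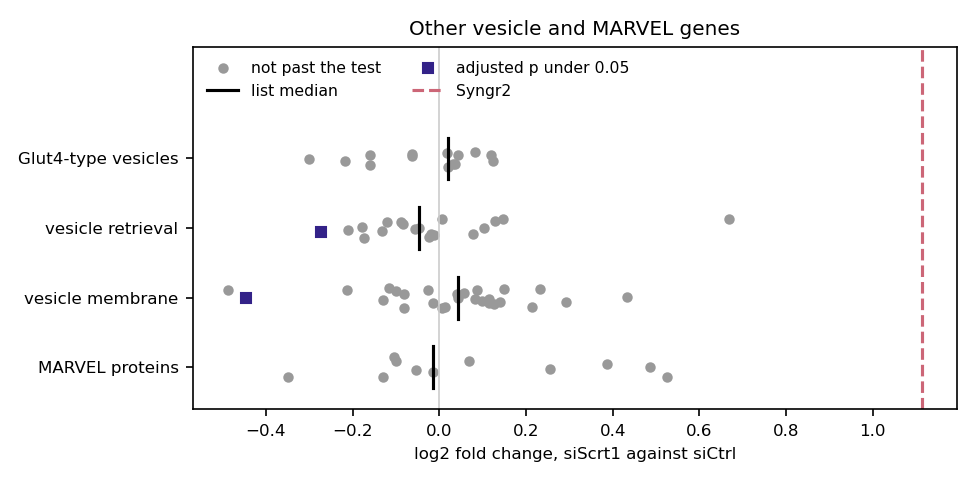
Log2 fold change of siScrt1 against siCtrl (x axis) for each tested gene of the 4 lists, with grey circles for genes that did not pass the test, dark squares for those with an adjusted p under 0.05 and a black line for each list's median. The medians lie between -0.05 and 0.04, the squares are Vamp7 (-0.45) and Snap91 (-0.27), and no gene of the lists reaches the dashed line of Syngr2 at 1.11.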

How the data were processed

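RNA-seq libraries of sorted β-cells (10 libraries, 5 siScrt1 and 5 siCtrl) were grouped by the genotype label. The processing notes of the submitters name FastQC, Trimmomatic, kallisto and sleuth, and the study states the rat Rnor6 transcriptome, without versions. In the deposited table each of 31715 transcripts has an estimated count and a TPM, both put on a common scale by the authors (sleuth) and read here as signal values (9363 rows without values were left out). Division by the step that 1 read is worth in each library gave recovered reads, with whole library totals in 10 of 10 libraries. Of the values above 0, 48.4% of transcripts and 75.2% of genes were whole to within 0.001. Library totals (11901342 to 17444034 recovered reads) set the precision of low genes.

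Gene sums of the scaled counts were put on the log2 scale after adding 0.5, which understates changes of low genes, and fitted in limma 3.58.1 (R 4.3.3, eBayes with trend) with group as the only term. In 5 or more libraries a gene needed the CPM that 10 reads give at the median depth (12941 of 23918 passed), and a transcript 5 reads. The Benjamini-Hochberg adjustment ran over all features tested, with a threshold of 0.05. Single values were compared with exact permutation tests (scipy 1.17.1). Fits were checked on simulated data. The members and gene lists were chosen with earlier results of these data known. Named genes were Scrt1, the members and their relatives, the nearest gene with values on either side of each member and the 5 genes most like Syngr2. Also named were the called genes of each list, its 3 genes with the highest mean scaled TPM, and the highest markers. The table numbers the libraries within each group, and deviations of same-numbered libraries correlated at 0.131 to 0.351, all over 0.1. Differently numbered libraries correlated at up to 0.167, above the lowest of these values. All 5 siCtrl libraries and 4 of 5 siScrt1 libraries were closest to their own number. The number was therefore tried as a pairing and as a block, although the labels do not say that it marks a shared preparation. Other alternatives were median-ratio and upper-quartile scaling, no filter or 50 reads, a pseudocount of 5, log2(TPM + 1) and log2(TPM + 0.1), limma-voom, and leaving out each library.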

Additional observations from a re-analysis of the deposited data

Results flagged for a closer look

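Among 30 sets of 5 values examined for a library far from the others (15 measures in each group, Syngr3 and Synpr not among them), 2 stood out, where chance alone gives about 5% of such sets. Both were the summed mesenchymal markers. In siCtrl replicate 4 the sum was 16.8 CPM, against 3.71 to 6.86 CPM in the other 4 libraries. In siScrt1 replicate D it was 30.6 CPM, against 4.72 to 8.68 CPM in the others. The 2 libraries carry the same number in the deposited table. Their Syngr2 values (13.8 and 29.0 CPM) lay inside the range of their groups, and no value of Syngr1, Syngr2, Syp or Sypl1 in any library stood apart in this way.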

How the results depend on the processing

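None of the calls for Syngr1, Syp or Sypl1 changed under the 19 alternatives, and the direction changed only for Syp, to -0.0017 without siCtrl replicate 2, where leaving out the other libraries gave up to 0.11. The replicate block on the table number gave 259 changed genes in place of 136 (132 shared) and 29 transcripts in place of 73, and took the changed genes of the vesicle membrane and vesicle retrieval lists from 1 to 2 each. It changed no call of a member. Leaving out 1 library gave 62 to 133 genes and 16 to 67 transcripts, 0 to 2 genes of the vesicle membrane list (0 without siScrt1 replicate D, 2 without C) and 0 to 1 of the retrieval list. The gene count fell by over 1.5 times without replicate 4 (82) or 5 (77) of siCtrl, or B (83), C (87), D (62) or E (64) of siScrt1, and the transcript count without replicate 2 (35), 3 (48), 4 (26) or 5 (16) of siCtrl, or C (39), D (21) or E (16) of siScrt1. The fits without a library had fewer samples. The cause of the other changes was not tested. In the marker sums, 0 of 99 omissions and scalings gave an exact p under 0.05. The sign of a difference in mean summed CPM turned for the δ- and PP-cell list when siCtrl replicate 2 (-2.92) or siScrt1 replicate E (-6.05) was left out, for the endothelial list with siCtrl replicate 2 (-0.0405), siCtrl replicate 4 (-0.0767) or siScrt1 replicate B (-0.105) left out, for the mesenchymal list with siScrt1 replicate D (-1.21) left out, and for the neural list with siCtrl replicate 2 (0.0582) left out. Their values at the other end of the range were 11.4, 0.118, 6.01 and -0.824. Depth limits Syngr3 and Synpr, which had at most 3 reads in any library.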
